A study of Mus musculus with 6 samples.

Results

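The glucocorticoid receptor and 8 genes known as its direct targets were followed in mouse osteoblasts: the receptor gene Nr3c1, and Fkbp5, Tsc22d3, Zbtb16, Sgk1, Dusp1, Klf9, Hsd11b1 and Angptl4. These 9 genes were taken by name from the 21686 genes of the count table. RNA from MC3T3-E1 Subclone 14, a single subclone of a mouse osteoblast precursor line, was sequenced after 72 hours in 6 libraries, 2 a group. Control cells were given 100 µL of PBS, the dexamethasone group 10 µM of this synthetic glucocorticoid, and the dexamethasone + EPC-EVs group 10 µM dexamethasone with 100 µg of extracellular vesicles (EPC-EVs) secreted by endothelial progenitor cells of mouse bone marrow. No group received EPC-EVs without dexamethasone, so an effect of the vesicles on their own cannot be told apart from one that needs dexamethasone. The study calls the libraries of a group biological replicates, but neither its methods nor the labels say what was kept separate, so p-values measure only the spread between these libraries, which may be technical. The text deposited with the whole series names fibroblasts and a shorter treatment, and parts of the study's text give a smaller amount of EPC-EVs for the dexamethasone + EPC-EVs group than the labels and its methods do, so the sample labels were followed here.

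Without hormone the glucocorticoid receptor is held in the cytoplasm by heat shock proteins and their partners. On binding a glucocorticoid it moves to the nucleus, where it binds DNA at glucocorticoid response elements and raises some genes, while it holds down many inflammatory genes, largely by acting on other transcription factors. Fkbp5 and Tsc22d3 are among the genes used most often as readouts of this response. In bone, lasting glucocorticoid excess is known to impair osteoblasts.

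Of the targets with a promoter window, Sgk1 held the full receptor motif close to a transcription start. RefSeq promoter windows, the 250 bases before an annotated start in build GRCm38.p6, were matched by symbol for 6 of the 9 genes in 13 windows, and 1 window is shown for each of the 4 targets that were higher in dexamethasone + EPC-EVs. Of the 6 windows of Sgk1 this is the one with the full element, of the 3 of Tsc22d3 the one with a half-site, and Dusp1 and Fkbp5 had 1 window each. Each is written 5′ to 3′ on the strand of its gene, and capitals mark glucocorticoid response elements, their half-sites and cAMP response elements. The Sgk1 window is at chr10:21993640-21993889 on the plus strand, the Tsc22d3 window at chrX:140600523-140600772, the Dusp1 window at chr17:26508473-26508722 and the Fkbp5 window at chr17:28486150-28486399, these 3 on the minus strand.
Sgk1: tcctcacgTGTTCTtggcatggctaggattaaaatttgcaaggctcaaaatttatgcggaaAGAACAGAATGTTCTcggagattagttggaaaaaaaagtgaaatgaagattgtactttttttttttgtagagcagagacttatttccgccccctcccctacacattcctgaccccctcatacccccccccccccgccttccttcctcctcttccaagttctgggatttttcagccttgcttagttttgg
Tsc22d3: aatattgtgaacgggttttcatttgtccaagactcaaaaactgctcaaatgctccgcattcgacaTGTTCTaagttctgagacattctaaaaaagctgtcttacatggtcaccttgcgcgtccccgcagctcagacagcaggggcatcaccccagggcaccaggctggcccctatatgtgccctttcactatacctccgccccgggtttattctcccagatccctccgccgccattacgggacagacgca
Dusp1: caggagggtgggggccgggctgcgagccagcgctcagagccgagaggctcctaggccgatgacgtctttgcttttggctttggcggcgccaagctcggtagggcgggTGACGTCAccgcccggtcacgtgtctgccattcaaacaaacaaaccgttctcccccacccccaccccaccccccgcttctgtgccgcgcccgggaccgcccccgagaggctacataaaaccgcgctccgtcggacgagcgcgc
Fkbp5: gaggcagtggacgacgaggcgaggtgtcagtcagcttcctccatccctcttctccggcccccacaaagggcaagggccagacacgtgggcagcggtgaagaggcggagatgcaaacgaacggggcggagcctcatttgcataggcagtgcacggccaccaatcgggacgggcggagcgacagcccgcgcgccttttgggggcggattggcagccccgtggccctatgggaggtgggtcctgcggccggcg

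The palindrome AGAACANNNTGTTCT, the glucocorticoid response element searched, occurred in 3 of 32851 windows (0.00913%) and in 1 of the 13 windows of these genes. That match, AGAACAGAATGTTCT in the Sgk1 window, began 189 bases before the start. The half-site TGTTCT, or AGAACA on the other strand, was far more common, in 16.1% of all windows, and it occurred in 3 of the 6 Sgk1 windows and in the Tsc22d3 window shown, where it began 185 bases before the start. The cAMP response element TGACGTCA, a site known to pass on kinase signals, was found in 1.55% of windows and in that of Dusp1, 143 bases before the start. Fkbp5 held neither receptor motif nor cAMP response element in its window, but 3 GC boxes (GGGCGG on either strand, in 32.7% of windows) and an E-box (CACGTG, in 6.02%). The E-box of the Sgk1 window overlaps its first half-site. A loose form of the AP-1 site, TGANTCA with any base at N, was found in 6.75% of windows and in that of Klf9, as TGAATCA. The Hsd11b1 window held none of the 6 motifs. A window reaches only 250 bases, both strands were searched, and a match is a string of letters and not a measured binding site.

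**Figure D1:**
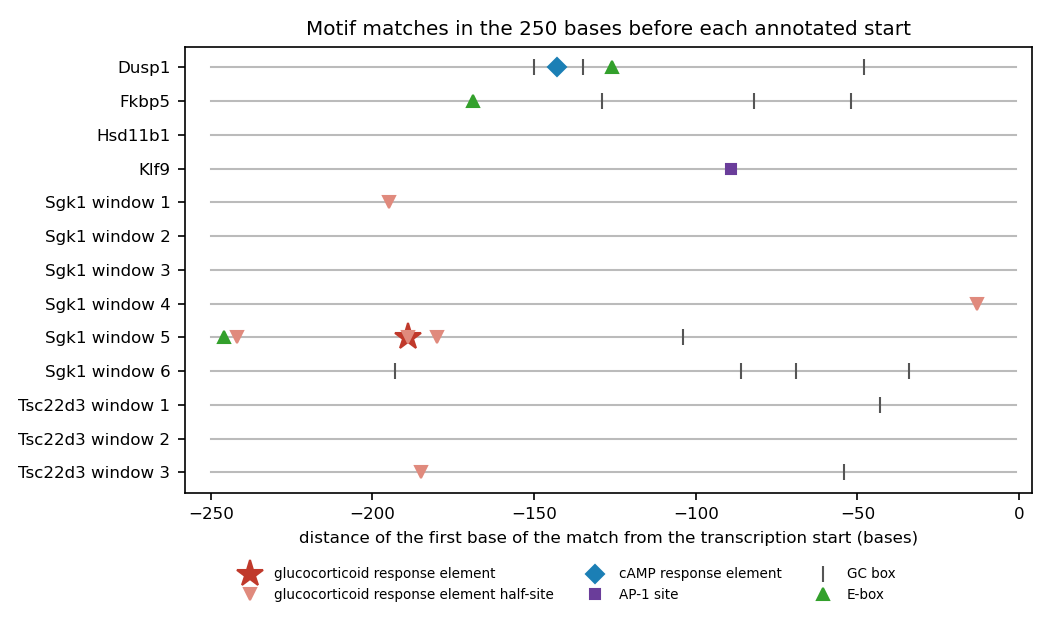
Motif matches in the 13 RefSeq promoter windows of 6 of the genes; the horizontal axis gives the distance in bases of the first base of a match from the transcription start, each row is a window, and symbols mark the motif. The glucocorticoid response element appears in the fifth Sgk1 window alone, 189 bases before the start, and the cAMP response element in the Dusp1 window alone.

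Total counts were 5146760 to 6126888 in control, 6575094 to 6583735 in dexamethasone and 12864009 to 13182014 in dexamethasone + EPC-EVs, and a count of 0 allows up to 3 counts, or 0.228 to 0.583 CPM (counts scaled to a common library size), for counting error only. The dexamethasone + EPC-EVs libraries stood apart in composition. Mitochondrially encoded genes took 0.465% and 0.727% of their counts against 5.55% to 8.62% in the other 4 libraries, and the noncoding gene Gm26917 took 5.88% and 6.69%. Gm26917 had 4345 ± 2476, 9327 ± 2393 and 63704 ± 6137 CPM (SD, n = 2) in control, dexamethasone and dexamethasone + EPC-EVs. All 12 osteoblast markers had counts in every group, with summed levels of 16162 to 17669 CPM in control, 17352 to 17637 in dexamethasone and 23137 to 29149 in dexamethasone + EPC-EVs, mostly Spp1, Col1a1 and Col1a2, while Alpl, Bglap and Ibsp were low. Their members moved both ways in dexamethasone + EPC-EVs, Col1a1, Col1a2 and Sparc being called higher and Spp1 and Phex lower against both other groups. Spp1 had 10859 ± 737, 10696 ± 169 and 5188 ± 1217 CPM (SD, n = 2) in control, dexamethasone and dexamethasone + EPC-EVs. Endothelial markers summed to 381 to 420, 365 to 373 and 238 to 288 CPM, nearly all of it Cd34. Cd34 was called lower in dexamethasone + EPC-EVs against both other groups. Cdh5, Kdr, Tek, Tie1 and Prom1 were at 0 there, but Kdr and Tie1 were at 0 in every group and Cdh5 also in control. Emcn had counts only in dexamethasone + EPC-EVs replicate 2 (6), where Pecam1 had 21 counts against 0 to 7 in the other libraries. Blood cell markers summed to 11.8 to 12.2, 18.3 to 18.4 and 19.2 to 53.2 CPM, with most of the highest value in Csf1r. Ptprc and Itgam were at 0 in every group, and Adgre1 in control and dexamethasone + EPC-EVs. Csf1r was called higher in dexamethasone + EPC-EVs against control, with 56 and 471 counts in its libraries. Adipocyte markers summed to 2.80 to 7.39, 4.27 to 10.0 and 0.154 to 0.706 CPM, and 2, 3 and 1 of 7 had counts in these groups. Chondrocyte markers summed to 212 to 295, 258 to 334 and 211 to 226 CPM, with Matn1 at 0. The part of composition in the results for that group was not tested. In bulk RNA, fewer cells of a type and less RNA per cell cannot be told apart.

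Dexamethasone alone left none of the measured targets past the test, whereas the group that also received EPC-EVs had higher Dusp1, Tsc22d3, Fkbp5 and, against dexamethasone, Sgk1, with lower Angptl4 against dexamethasone and lower Nr3c1 against control. Of the 9 genes, 7 had enough counts to be tested, Zbtb16 and Hsd11b1 being too low in each comparison, and a call means that p, adjusted over every gene tested, was below 0.05 in the quasi-likelihood test of edgeR. Between dexamethasone and control, 0 of 7 were called, against 0.0544% of all 12879 genes tested (0.0155% higher and 0.0388% lower), and DESeq2 also called 0 of 7, against 1.06%. At an unadjusted p under 0.05 there were 2, Nr3c1 and Dusp1, against 10.9% of all genes, and these were also the 2 of 7 with separate libraries in the 2 groups, that is without overlap, against 43.9%. Between dexamethasone + EPC-EVs and dexamethasone, 5 of 7 were called, against 39.8% of 13556 genes, 4 of them higher (20.9%) and 1 lower (18.9%). The libraries did not overlap for 7 of 7, against 72.5%. Between dexamethasone + EPC-EVs and control, 4 of 7 were called, against 36.4% of 13511 genes, 3 higher (19.1%) and 1 lower (17.2%), and the libraries did not overlap for 6 of 7, against 73%. The study's methods set a threshold of 0.05 on the unadjusted p and of 1.5 on the size of the log2 fold change, and 0, 3 and 3 of 7 passed both, against 1.41%, 14.2% and 20.7% of all genes. The comparisons share libraries with each other, so their values are given side by side and not as independent evidence. With mitochondrially encoded genes left out, the counts of called genes were again 0, 5 and 4, against 0.00773%, 39.9% and 36.3% of all genes. Without dexamethasone replicate 2, the 5 became 2, Dusp1 and Tsc22d3, while the share of all genes called fell to 22.3%. Without dexamethasone + EPC-EVs replicate 1, the 4 became 2 and the share of all genes was 25.1%.

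**Figure D2:**
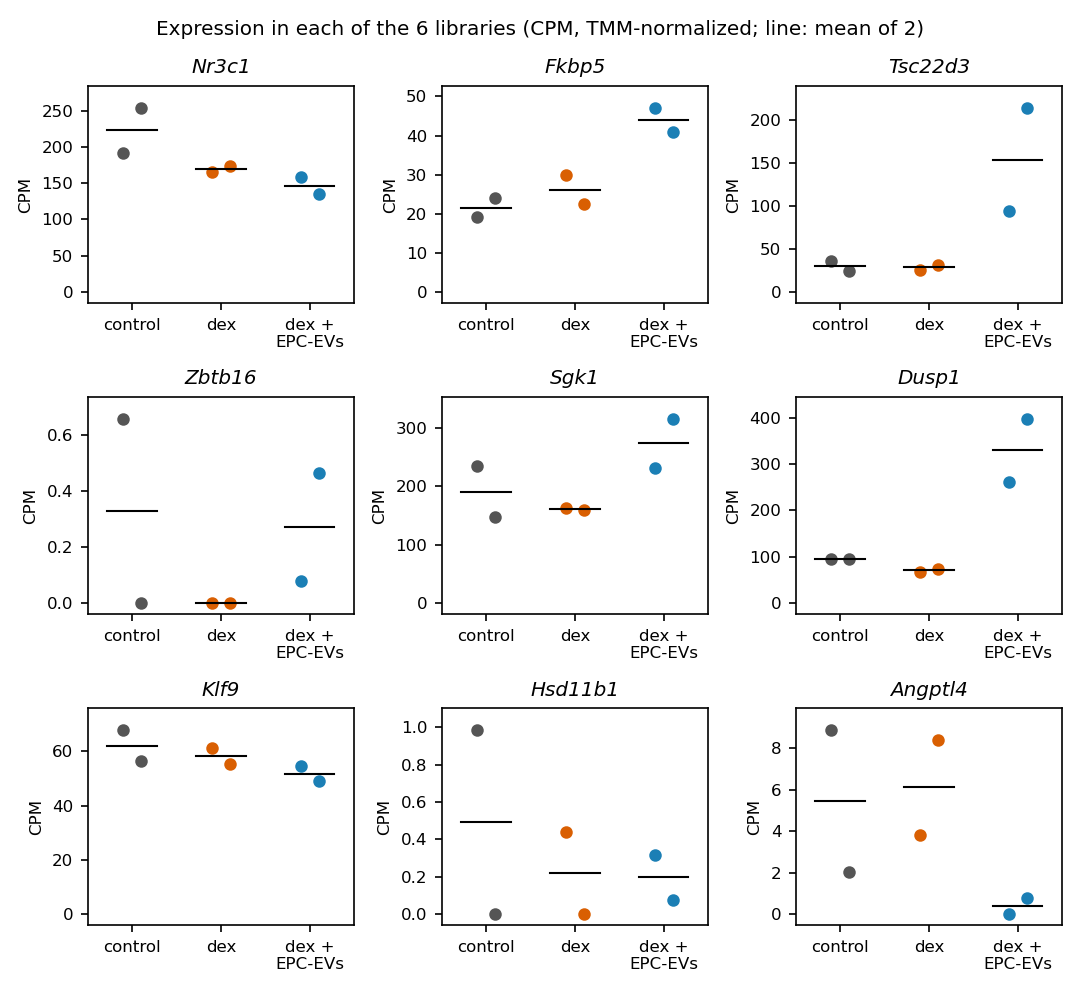
Expression of the 9 genes in CPM after TMM normalization, 1 panel a gene; each point is a library, the line is the mean of the 2 libraries of a group, and dex stands for dexamethasone. Dusp1, Tsc22d3 and Fkbp5 are higher in both dexamethasone + EPC-EVs libraries than in the other 4, Nr3c1 is highest in control, and Zbtb16 and Hsd11b1 stay below 1 CPM.

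Nr3c1, which encodes the receptor itself (ENSMUSG00000024431.14, on the minus strand of chromosome 18), was well expressed in all 6 libraries. It had 192 and 254 CPM in control, 166 and 174 in dexamethasone, and 159 and 135 in dexamethasone + EPC-EVs, which gives 223 ± 43.3, 170 ± 5.49 and 147 ± 17.1 (SD, n = 2). Both control libraries lay above the other 4, and the dexamethasone + EPC-EVs libraries below both others. The log2 fold change was -0.40 between dexamethasone and control (SE 0.177, adjusted p = 0.447), and between dexamethasone + EPC-EVs and dexamethasone it was -0.23 (SE 0.139, adjusted p = 0.218), which turned to 0.38 (adjusted p = 0.0606) after correction for GC content and gene length. Between dexamethasone + EPC-EVs and control Nr3c1 fell by 0.62 on the log2 scale (SE 0.208, adjusted p = 0.0455). That call was lost without control replicate 2 (adjusted p = 0.155), without dexamethasone + EPC-EVs replicate 1 (0.0875) or replicate 2 (0.282), and the direction turned to a log2 fold change of 0.09 (adjusted p = 0.768) after the same correction. Without control replicate 1, Nr3c1 was also called between dexamethasone and control (log2 fold change -0.58, adjusted p = 0.00262), in a fit that called 16% of all genes.

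The genes 2610203C20Rik, Ice2 and Prkce followed Nr3c1 most closely over the 6 libraries, as measured by the root mean square difference of log2 CPM profiles centred on their means, among 9218 genes averaging 10 CPM or more. That difference was 0.0568 for 2610203C20Rik, 0.0574 for Ice2 and 0.0637 for Prkce. Prkce encodes a protein kinase C isoform, and had 56.0 and 70.1 CPM in control, 49.0 and 51.7 in dexamethasone, and 46.9 and 43.0 in dexamethasone + EPC-EVs. The likeness rests on 6 libraries of 3 groups and is a description.

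Fkbp5 (ENSMUSG00000024222.16, chr17:28399094-28517527, minus strand) encodes a cochaperone that lowers the receptor's affinity for hormone and so closes a feedback loop. It was measured at 19.1 and 24.0 CPM in control, 29.9 and 22.4 in dexamethasone, and 47.0 and 40.9 in dexamethasone + EPC-EVs. The control and dexamethasone libraries overlapped, and the dexamethasone + EPC-EVs libraries lay above all 4. Fkbp5 differed by a log2 fold change of 0.27 between dexamethasone and control (SE 0.316, 95% interval -0.42 to 0.97, adjusted p = 0.789). It rose by a log2 fold change of 0.73 against dexamethasone (SE 0.225, 1.66-fold, adjusted p = 0.0225) and by 1.01 against control (SE 0.274, 2.01-fold, adjusted p = 0.0208). The call against dexamethasone was lost without dexamethasone replicate 2 (adjusted p = 0.153) or dexamethasone + EPC-EVs replicate 1 (0.0836), and that against control without dexamethasone + EPC-EVs replicate 1 (0.142) or replicate 2 (0.0560). After that correction for GC content and length, the log2 fold changes were 0.54 (adjusted p = 0.0820) and 0.56 (adjusted p = 0.187).

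Tsc22d3 (ENSMUSG00000031431.13, chrX:140539528-140600659, minus strand) encodes GILZ, a leucine zipper protein through which glucocorticoids act against inflammatory transcription factors. Its levels were 36.1 and 24.8 CPM in control, 25.9 and 31.7 in dexamethasone, and 93.5 and 214 in dexamethasone + EPC-EVs. Control and dexamethasone overlapped, and both dexamethasone + EPC-EVs libraries were far above them, though they differed from each other by 2.28 times. Dexamethasone differed from control by a log2 fold change of -0.09 (SE 0.296, 95% interval -0.74 to 0.57, adjusted p = 0.945). Tsc22d3 rose by a log2 fold change of 2.40 against dexamethasone (SE 0.389, 5.27-fold, adjusted p = 0.00275), a call kept in all 15 alternatives, and by 2.31 against control (SE 0.393, 4.97-fold, adjusted p = 0.00286). The latter was lost without control replicate 2 (log2 fold change 2.09, adjusted p = 0.0515). Without dexamethasone + EPC-EVs replicate 2, the higher of its libraries, the log2 fold changes were 1.70 and 1.60, and without replicate 1 they were 2.89 and 2.81.

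Zbtb16, a zinc finger transcription repressor that glucocorticoids raise strongly in several tissues (chr9:48654297-48836222, minus strand), was barely detected. It had 4 and 0 counts in control, 0 and 0 in dexamethasone, and 1 and 6 in dexamethasone + EPC-EVs. All 6 values were below 1 CPM, the groups with counts overlapped, and no fold change is given.

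Sgk1 (ENSMUSG00000019970.15, chr10:21882184-21999903, plus strand) encodes a kinase that controls ion channels and cell survival and was named for its response to serum and glucocorticoids. It had 234 and 147 CPM in control, 162 and 159 in dexamethasone, and 232 and 315 in dexamethasone + EPC-EVs. The control libraries were 1.60 times apart and spanned both dexamethasone values, while both dexamethasone + EPC-EVs libraries were above dexamethasone and overlapped control. The log2 fold change was -0.25 between dexamethasone and control (SE 0.210, 95% interval -0.71 to 0.21, adjusted p = 0.699). Against dexamethasone Sgk1 rose by a log2 fold change of 0.75 (SE 0.159, 1.68-fold, adjusted p = 0.00299), and against control the log2 fold change was 0.50 (SE 0.258, 95% interval -0.086 to 1.09, adjusted p = 0.161). The call against dexamethasone was lost without dexamethasone replicate 1 (adjusted p = 0.0532) or replicate 2 (0.0637), and without control replicate 1 the value against control was called at 0.92 (adjusted p = 0.0137).

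Dusp1 (ENSMUSG00000024190.6, chr17:26505590-26562128, minus strand) encodes a phosphatase that switches off the p38 and JNK kinases. Its levels were 96.1 and 94.3 CPM in control, 66.7 and 73.8 in dexamethasone, and 262 and 398 in dexamethasone + EPC-EVs, so that no group overlapped another. The means were 95.2 ± 1.28, 70.3 ± 5.03 and 330 ± 95.9 (SD, n = 2). The dexamethasone libraries differed from control by a log2 fold change of -0.44 (SE 0.188, 95% interval -0.86 to -0.027, adjusted p = 0.428). Dusp1 rose by a log2 fold change of 2.21 against dexamethasone (SE 0.194, 4.64-fold, adjusted p = 8.98e-06) and by 1.77 against control (SE 0.235, 3.42-fold, adjusted p = 0.00106). Both calls were kept in all 15 alternatives, although the value against control was 0.97 after the GC content and length correction. The annotated span of Dusp1 overlaps Ergic1 on the other strand, and although the alignment was run with a strand setting, that of the counting step is not given in the sources used here. Ergic1 itself had 205 ± 18.5, 221 ± 18.2 and 203 ± 0.635 CPM (SD, n = 2).

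Klf9 (ENSMUSG00000033863.1, chr19:23141226-23168134, plus strand) encodes a Krüppel-like transcription factor that answers to glucocorticoids and thyroid hormone. It had 67.9 and 56.5 CPM in control, 61.3 and 55.4 in dexamethasone, and 54.6 and 48.9 in dexamethasone + EPC-EVs. Control and dexamethasone overlapped, and the dexamethasone + EPC-EVs libraries were slightly below all others. Its log2 fold changes were -0.10 between dexamethasone and control (95% interval -0.57 to 0.38, adjusted p = 0.908), -0.19 against dexamethasone (-0.58 to 0.20, adjusted p = 0.425) and -0.28 against control (-0.79 to 0.22, adjusted p = 0.349). No alternative called Klf9 in any of the 3 comparisons.

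Hsd11b1, the enzyme that turns inactive steroid back into active glucocorticoid inside cells (chr1:193221634-193264075, minus strand), was close to the floor. It had 6 and 0 counts in control, 3 and 0 in dexamethasone, and 4 and 1 in dexamethasone + EPC-EVs. The groups overlapped, and the gene overlaps Lamb3 on the other strand and 2 further genes in the table.

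Angptl4 (ENSMUSG00000002289.15, chr17:33773750-33781830, minus strand) encodes a secreted inhibitor of lipoprotein lipase. It had 54 and 10 counts in control, 26 and 57 in dexamethasone, and 0 and 10 in dexamethasone + EPC-EVs, or 8.87 and 2.00, 3.83 and 8.40, and 0 and 0.771 CPM. Control and dexamethasone overlapped, and both dexamethasone + EPC-EVs libraries were below them despite their greater depth. The log2 fold change was 0.16 between dexamethasone and control (SE 0.758, 95% interval -1.52 to 1.83, adjusted p = 0.966). Angptl4 fell by 3.95 on the log2 scale against dexamethasone (SE 1.10, adjusted p = 0.0132), and its log2 fold change against control was -3.79 (SE 1.42, adjusted p = 0.0656). These sizes rest on few counts, and the first was -2.97 without dexamethasone + EPC-EVs replicate 1 (adjusted p = 0.0207). Without dexamethasone replicate 2 the first was not called (log2 fold change -3.27, adjusted p = 0.180), and 6 of 15 alternatives called the second, among them DESeq2 (adjusted p = 0.0148) and the fits without control replicate 2 (0.0267) or dexamethasone + EPC-EVs replicate 2 (0.00756). With that last library left out, the group was 1 library with 0 counts, so no size is given for it.

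**Figure D3:**
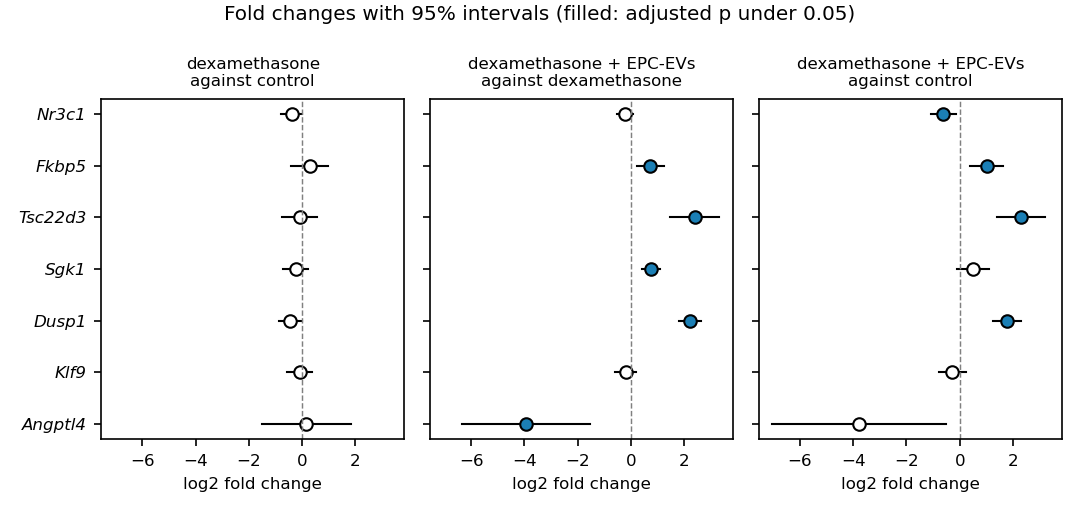
Log2 fold changes of the 7 tested genes in the 3 comparisons from edgeR's quasi-likelihood test; bars are 95% intervals and filled points are genes called at an adjusted p under 0.05. No point is filled between dexamethasone and control, and Dusp1 and Tsc22d3 have the largest rises in both other panels.

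Levels were compared between genes only per length, as the deposited FPKM (counts scaled by gene length and library total). In control the order of mean FPKM was Sgk1 (38.3 ± 13.1), Dusp1 (34.7 ± 1.04), Nr3c1 (29.4 ± 5.24), Klf9 (18.7 ± 2.73), Tsc22d3 (6.91 ± 1.92), Fkbp5 (3.32 ± 0.487), Angptl4 (1.64 ± 1.48), Hsd11b1 (0.115 ± 0.163) and Zbtb16 (0.0618 ± 0.0874; SD, n = 2). The order was the same in dexamethasone. Sgk1 overlapped Dusp1 and Nr3c1 in control, where Nr3c1 was above it in replicate 2 (33.2 against 29.0 FPKM), and Hsd11b1 and Zbtb16 overlapped in both groups. In dexamethasone + EPC-EVs, Dusp1 came first (121 ± 34.5), then Sgk1 (55.0 ± 11.6) and Tsc22d3 (34.9 ± 19.1), which overlapped each other, and Nr3c1 (19.5 ± 2.36) came after them. The mean of Tsc22d3 thus moved from below the receptor and Klf9 to above both in this group. Against Nr3c1 it was nearly level in replicate 1 (21.3 against 21.2 FPKM) and higher in replicate 2 (48.4 against 17.8).

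**Figure D4:**
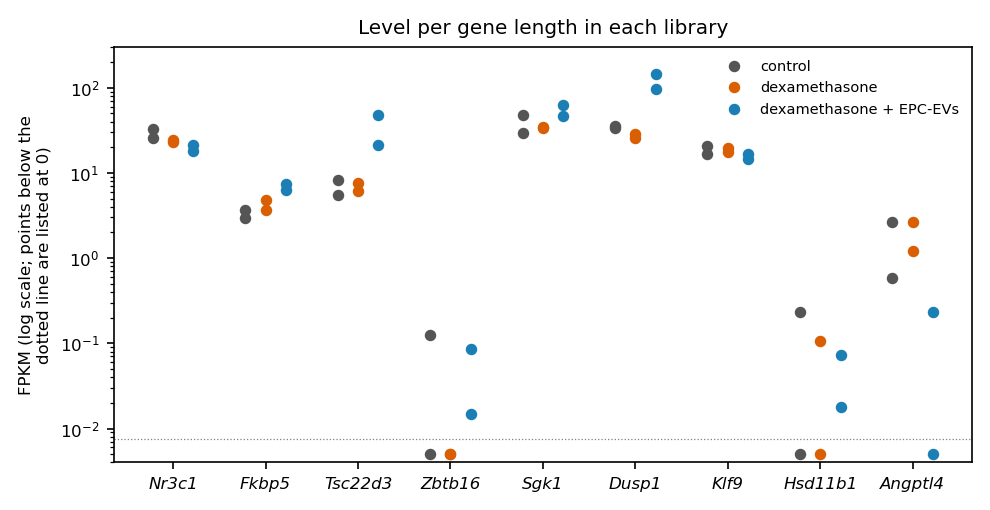
FPKM of the 9 genes on a log scale, with a point for each library coloured by group; points below the dotted line are listed at 0. Sgk1, Dusp1, Nr3c1 and Klf9 lie above 10 FPKM in all 6 libraries, and Hsd11b1 and Zbtb16 below 1.

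Counts set against those of Nr3c1 in the same library do not depend on how libraries are scaled. Dusp1 had 0.4996 and 0.372 counts per Nr3c1 count in control, 0.402 and 0.425 in dexamethasone, and 1.65 and 2.95 in dexamethasone + EPC-EVs. For Tsc22d3 the ratios were 0.188 and 0.0979, 0.156 and 0.183, and 0.588 and 1.59. For Fkbp5 they were 0.0991 and 0.0947, 0.180 and 0.129, and 0.296 and 0.303. The ratio of Fkbp5 was thus above control in both dexamethasone libraries, which its level alone was not. For Sgk1 the ratios were 1.22 and 0.579, 0.979 and 0.915, and 1.46 and 2.34, so that those of dexamethasone + EPC-EVs were above control, where its levels overlapped. Neither difference was tested, and the share of all genes with separate ratios is not given here. Nr3c1 itself had mean levels of 223, 170 and 147 CPM in control, dexamethasone and dexamethasone + EPC-EVs. Each ratio therefore also carries the change of its denominator. For Klf9 the ratios overlapped between all groups, at 0.353 and 0.223, 0.369 and 0.319, and 0.343 and 0.363. Those of Angptl4 were lowest in dexamethasone + EPC-EVs, at 0.0461 and 0.00789, 0.0231 and 0.0484, and 0 and 0.00572, on few counts.

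Around these genes, 5 lists of the receptor's wider network were read in the same fits. The other induced targets were 26 genes, of which 21 were tested in each comparison. Between dexamethasone and control 0 of 21 were called, by edgeR (0.0544% of all genes) and by DESeq2 (1.06%), with 5 at an unadjusted p under 0.05 against 10.9%. Of these 5, Anxa1, Errfi1, Lcn2 and Tiparp had lower mean CPM in dexamethasone than in control, and Ddit4 higher. The list's median log2 fold change was -0.03 against 0.01 over all genes. Against dexamethasone, 5 of 21 rose and 8 fell in dexamethasone + EPC-EVs, where 20.9% and 18.9% of all genes did, with a median of -0.30 against 0.01. Against control 5 of 21 rose and 9 fell, where 19.1% and 17.2% of all genes did, with a median of -0.61 against 0.02. Those that rose were Cebpb, Ddit4, Rgs2, Sesn1 and Zfp36 in each comparison, which share the dexamethasone + EPC-EVs libraries. Zfp36, which encodes an RNA-binding protein that destabilizes inflammatory transcripts, had 18.4 ± 3.97, 29.5 ± 5.01 and 113 ± 17.6 CPM (SD, n = 2) in control, dexamethasone and dexamethasone + EPC-EVs. Per1, a clock gene and common glucocorticoid readout, had 88.5 ± 23.6, 88.8 ± 7.85 and 94.8 ± 17.3 CPM and was not called.

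The largest called falls within the list of other induced targets, among those averaging at least 1 CPM, were acute-phase and metal-binding genes. Other inflammatory and metal signals also raise these. Lcn2, which encodes the iron-siderophore binding protein lipocalin, had 1217 ± 4.31, 905 ± 137 and 6.59 ± 3.22 CPM (SD, n = 2). It fell by 7.11 on the log2 scale against dexamethasone (SE 0.307, adjusted p = 8.47e-07) and its log2 fold change against control was -7.54 (SE 0.359, adjusted p = 5.79e-05). Saa3, a serum amyloid gene, fell with log2 fold changes of -4.21 and -4.36 (SE 0.406 and 0.508), and the metallothionein gene Mt1 with -3.79 and -3.36 (SE 0.167 and 0.373). These sizes moved with single libraries. Without dexamethasone + EPC-EVs replicate 1 the log2 fold changes of Saa3 were -3.58 and -3.73. Without replicate 2 of that group they were -5.29 and -5.45, and those of Lcn2 -7.71 and -8.14. Mt1 against control was -2.63 without control replicate 1.

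The list of inflammatory genes that glucocorticoids usually repress held 18 genes, with 12 tested. Between dexamethasone and control 1 was called, the chemokine gene Cxcl5, which had 49.8 and 64.9 CPM in control and 8.69 and 9.14 in dexamethasone and fell by 2.69 on the log2 scale (SE 0.293, adjusted p = 0.0132). That is 1 of 12 against 0.0544% of all genes, and at an unadjusted p under 0.05 there were 6 of 12, Ccl2, Ccl7, Cxcl5, Mmp13, Ptgs2 and Vcam1, against 10.9%. Cxcl5 lost that call in limma on FPKM (adjusted p = 0.167 and 0.215 with pseudocounts of 1 and 0.1). DESeq2 called 4 of 12, all lower, Ccl7, Mmp13, Ptgs2 and Vcam1, against 0.699% of all genes called lower by it, and gave no adjusted p for Cxcl5. The list's median was -0.47 against 0.01 over all genes. In dexamethasone + EPC-EVs 1 of 12 rose and 7 fell against dexamethasone, where 20.9% and 18.9% of all genes did (median -1.64 against 0.01), and 0 rose and 8 fell against control, where 19.1% and 17.2% did (median -1.86 against 0.02). Nos2, the inducible nitric oxide synthase gene, fell from 328 ± 138 and 383 ± 4.22 CPM to 1.86 ± 0.637 (SD, n = 2), with log2 fold changes of -7.69 against dexamethasone (SE 0.219, adjusted p = 6.33e-09) and -7.47 against control (SE 0.416, adjusted p = 7.07e-05). Il6 fell from 15.4 ± 5.01 and 15.8 ± 0.306 CPM to 0.392 ± 0.555, which is 10 counts in dexamethasone + EPC-EVs replicate 1 and 0 in replicate 2. Its log2 fold changes were -5.32 against dexamethasone and -5.27 against control, and -4.31 and -4.27 without replicate 2. Without replicate 1 the group was 1 library with 0 counts, so no size is given for it. Cxcl5 had 1 count in the 2 dexamethasone + EPC-EVs libraries together, against 121 in dexamethasone, a ratio of 229 once scaled for library depth, with an exact 95% counting interval of 40.3 to 9123. Csf1, which encodes a macrophage growth factor, was the gene that rose against dexamethasone, with 616 ± 20.7 CPM there and 919 ± 108 with EPC-EVs.

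All 12 receptor chaperones were tested, and 0 were called between dexamethasone and control, with 2 at an unadjusted p under 0.05, Hsp90aa1 and Hspa4, against 10.9% of all genes, and 1 by DESeq2, Hsp90aa1, against 1.06%. In dexamethasone + EPC-EVs the list moved both ways, 4 higher and 6 lower against dexamethasone (10 of 12 called against 39.8% of all genes, median -0.32 against 0.01) and 3 higher and 5 lower against control (8 of 12 against 36.4%, median -0.27 against 0.02). Hsp90aa1, the inducible chaperone that holds the receptor in its hormone-binding form, had 848 ± 106, 564 ± 0.602 and 229 ± 3.20 CPM (SD, n = 2), and fell with log2 fold changes of -1.32 and -1.91 (SE 0.118 and 0.181). Hspa8, the constitutive Hsp70 gene, rose by log2 fold changes of 1.49 and 1.44 (SE 0.126 and 0.174), and its partner Dnajb1 by 1.61 and 1.298 (SE 0.201 and 0.237), the latter call being lost after the GC content and length correction (log2 fold change 0.68, adjusted p = 0.0628). Fkbp4, which encodes the cochaperone that competes with that of Fkbp5, also rose in both comparisons, with 105 ± 42.8, 123 ± 13.8 and 224 ± 5.52 CPM.

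Receptor cofactors are coactivators, corepressors and chromatin remodellers that the bound receptor recruits. Of 12 tested, 0 were called between dexamethasone and control, by edgeR, by DESeq2 or at an unadjusted p under 0.05, where 0.0544%, 1.06% and 10.9% of all genes were. Against dexamethasone 0 rose and 2 fell, the deacetylase gene Hdac2 with a log2 fold change of -0.72 (SE 0.169, adjusted p = 0.00567) and the chromatin remodeller gene Smarca4 with -0.37 (SE 0.134, adjusted p = 0.0460), and against control 1 fell, Hdac2 with -0.90 (SE 0.215, adjusted p = 0.0123). These are 2 and 1 of 12, against 39.8% and 36.4% of all genes called, and the difference from all genes was not tested. Smarca4 lost its call in 7 of 15 alternatives, among them the fits without dexamethasone replicate 1 (adjusted p = 0.162) or replicate 2 (0.209) and without dexamethasone + EPC-EVs replicate 2 (0.164). Hdac2 lost its call against dexamethasone without dexamethasone replicate 1 (adjusted p = 0.0732) and against control without dexamethasone + EPC-EVs replicate 1 (0.119), and after the GC content and length correction its log2 fold changes were -0.14 (adjusted p = 0.569) and -0.23 (adjusted p = 0.459). Of 6 genes for glucocorticoid metabolism and export and the related receptor, 4 were tested, and 0 were called between dexamethasone and control (1 at an unadjusted p under 0.05, H6pd, and 0 by DESeq2, beside the same shares of all genes) or against dexamethasone (4 at an unadjusted p under 0.05, against 48.4% of all genes, and H6pd by DESeq2, against 37.8%). Against control 3 of 4 were called, where 36.4% of all genes were, and the 0 of 4 against dexamethasone stand beside 39.8%. H6pd, which supplies the cofactor of Hsd11b1, rose against control by a log2 fold change of 1.70 (SE 0.268, adjusted p = 0.00209), and the efflux pump genes Abcb1a and Abcb1b fell with log2 fold changes of -2.91 and -0.83 (SE 0.831 and 0.251, adjusted p = 0.0255 and 0.0316). The call of H6pd was lost after the GC content and length correction (log2 fold change 0.67, adjusted p = 0.0651). Abcb1a was not called without control replicate 1 (log2 fold change -2.04, adjusted p = 0.118) or in limma on log2(FPKM + 0.1) (adjusted p = 0.0635), and its log2 fold change was -4.69 without dexamethasone + EPC-EVs replicate 1 and -2.12 without replicate 2. Abcb1b lost its call in 6 of 15 alternatives, among them the fits without control replicate 1 (adjusted p = 0.0765), without dexamethasone + EPC-EVs replicate 1 (0.0838) or replicate 2 (0.232). The related receptor gene Nr3c2 had 4 counts in 1 library and 0 in the other 5, and Hsd11b2 was not in the table.

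**Figure D5:**
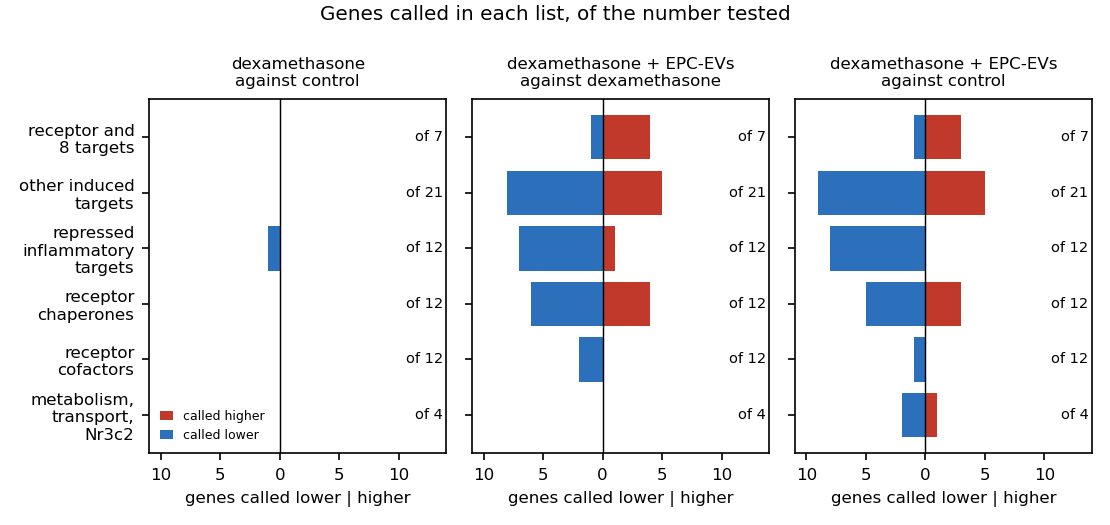
Number of genes called higher (red, to the right) and lower (blue, to the left) in the 9 receptor and target genes and 5 further lists, 1 panel a comparison, with the number tested at the right of each row. Between dexamethasone and control the only bar is that of Cxcl5, and in both other comparisons calls go in both directions in most lists.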

How the data were processed

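RNA libraries were made with the NEBNext Ultra RNA kit. Per the study's methods, the authors aligned the reads with HISAT2 in a stranded setting and counted them on genes with HTSeq 0.6.1 (GRCm38). The deposited counts are not normalized, and the deposited FPKM of all 21686 genes were found to be these counts scaled by gene length and library total. Reads without molecular identifiers are not independent molecules, so floors and counting intervals cover counting error only.

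The 4 libraries of each comparison entered a fit in edgeR 4.0.16 under R 4.3.3 (TMM, filterByExpr, robust quasi-likelihood, Benjamini-Hochberg adjustment over all genes tested, calls at an adjusted p under 0.05). The fit was also run on simulated data, whose outcome is not given here, and no result rests on it. CPM given here use TMM-scaled totals. Replicate libraries differed beyond counting error (chi-square over degrees of freedom 13.8, 6.13 and 16.1).

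The 9 genes and all lists were chosen with earlier results of these data known. Of each list, up to 3 called genes with the largest change and a mean of at least 1 CPM were named by rule. Per1, Zfp36, Csf1, Fkbp4 and Nr3c2 were chosen after their values were seen. Alternatives were other scalings, DESeq2 1.42.0, limma 3.58.1 on log2(FPKM + 1) and log2(FPKM + 0.1), no filter, a joint fit of all libraries, a block on replicate number, the methods' thresholds, removal of a GC content and length trend, mitochondrially encoded genes left out, and each library left out. Gene coordinates are those of GENCODE vM21, in which 21646 genes were found, and promoters those of RefSeq. Promoters of Nr3c1, Zbtb16 and Angptl4 are not given here. Columns of a transcript table were not used here.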

Additional observations from a re-analysis of the deposited data

How the results depend on the processing

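Calls of Dusp1 against both other groups and of Tsc22d3 against dexamethasone were kept in all 15 alternatives, and Klf9 was called in none. Each library left out in turn gave 0 to 1 called genes of the 9 between dexamethasone and control, 2 to 5 between dexamethasone + EPC-EVs and dexamethasone, and 2 to 5 between dexamethasone + EPC-EVs and control, where 0.0661% to 16%, 22.3% to 34.8% and 24.6% to 42.8% of all genes were called. The 5 called against dexamethasone became 3 under the methods' thresholds. Over all genes, the 7 called between dexamethasone and control became 136 with DESeq2, 248 with no filter, 43 with a replicate block, 20 with the GC content and length trend removed, 1 without mitochondrially encoded genes, 182 under the methods' thresholds, 0 in limma on FPKM and 9 to 2200 with a library left out (2200 without control replicate 1, 113 without control replicate 2, 17 without dexamethasone replicate 2). The 5397 against dexamethasone became 1922 and the 4916 against control 2793 under the methods' thresholds, and the first of these became 3250 without dexamethasone replicate 2. The causes of these moves were not tested.

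Small log2 fold changes between dexamethasone and control turned sign. With a library left out, these ranged from -0.32 to 0.22 for Tsc22d3, from -0.54 to 0.13 for Sgk1, from -0.21 to 0.049 for Klf9 and from -0.52 to 1.61 for Angptl4. Tsc22d3 became 0.22 without control replicate 1, 0.057 without dexamethasone replicate 1, and 0.0041 and 0.0071 in limma on FPKM with pseudocounts of 1 and 0.1. Without control replicate 1, Sgk1 became 0.13 and Klf9 0.049, and Angptl4 became -0.52 without control replicate 2 and -0.51 without dexamethasone replicate 2. With the GC content and length trend removed, Nr3c1 became 0.38 against dexamethasone (adjusted p = 0.0606) and 0.092 against control. Nr3c1 against control also lost its call in limma (adjusted p = 0.0803 and 0.0868) and with library totals only (0.0507), Fkbp5 against dexamethasone in limma (0.0637 and 0.0673) and with all 6 libraries in one fit (0.0529), and Sgk1 against control was called with no filter (0.0327).

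Samples sharing a replicate number showed little shared deviation from their group means (correlations over genes of 0.0751, -0.000635 and 0.0167). With 2 libraries a group, each value rests on 1 difference per group, so it cannot show whether the numbers mark paired cultures. With the replicate block 0, 5 and 3 genes of the 9 were called, against 0.334%, 39.6% and 34.6% of all genes, and Nr3c1 against control missed the threshold (log2 fold change -0.61, adjusted p = 0.0510). The median over all genes moved by more than 0.1 on the log2 scale with no filter (0.17, against control), without control replicate 1 (0.15, against control) and with the GC content and length trend removed (-0.13, dexamethasone against control). With 2 libraries a group the spread is poorly known, and a group left with 1 library was assumed to vary like the other. Few counts limit what can be said of Zbtb16, Hsd11b1 and Angptl4.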
